A study of Drosophila melanogaster with 3 samples.

Results

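The regions described here are the 664 pdm3-GFP peaks that fell below the reproducibility cutoff of the deposited optimal list but were covered by well ranked peaks in each of 3 replicates. They come from chromatin immunoprecipitation with sequencing of whole white prepupae of Drosophila melanogaster, mixed in sex, of the strain pdm3-GFP, a transgenic line in which pdm3 carries GFP at its C-terminus. Per the sample description, the fusion protein was pulled down with an antibody against GFP, while a further label gives pdm3 as the antibody. The chromatin was sheared by sonication to fragments of 200 to 800 bp. The 3 biological replicates form 1 group, there is no second genotype, treatment or time, and the control library was not analysed here. Whole animals were used, so a peak carries no information on the tissue it came from.

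The pooled candidate list holds 30000 peaks, of which the 8164 with the highest signal value form the optimal list. A pooled peak outside the optimal list was a member if peaks ranked 1 to 12000 by signal value in a replicate's own candidate list covered at least 50% of its length, in replicate 1, in replicate 2 and in replicate 3. The 664 members were 3.04% of the 21814 lower candidates. The members were thus selected on their pooled rank, their replicate ranks and their coverage, and these values are given as a description. The same coverage held for 6740 of the 8164 optimal peaks. The other 21150 lower candidates are the comparison set, and 22 further rows were left out because their coordinates equal those of an optimal row. With 1 group no test between samples is possible. Shares are given with 95% Wilson intervals, which cover counting over regions only, and the read depth behind each list is unknown.

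pdm3 encodes a transcription factor of the POU family, which binds DNA through a POU-specific domain and a homeodomain, and is known for roles in olfactory neuron identity, axon targeting and pigmentation. The octamer ATGCAAAT is the classical site of the POU family, known best from vertebrate Oct proteins. The white prepupa is the stage at which the larva has just stopped moving and formed a pupal case under a pulse of ecdysone. In an analysis of the irreproducible discovery rate, ranked peak lists of replicates are compared and the list is ended where their ranks stop agreeing, so weaker peaks can recur between replicates and still lie under the cutoff.

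Sequence at member summits is shown first for 2 words. They are the octamer ATGCAAAT as the classical POU site and the palindrome TATCGATA, the site of the promoter factor DREF, met among members near start sites alone. Neither was more frequent in members than in other lower candidates beyond the counting intervals. Each sequence runs from 50 bp before to 50 bp after the pooled summit, is read 5′ to 3′ from the RefSeq dm6 sequence, and is named by the gene with the nearest start site. Capitals mark the word, which is printed as ATTTGCAT where the octamer lies on the minus strand. TATCGATA was present at 5 members, of which these 3 are shown.
MICAL-like, chr3L:13015335-13015435, plus strand: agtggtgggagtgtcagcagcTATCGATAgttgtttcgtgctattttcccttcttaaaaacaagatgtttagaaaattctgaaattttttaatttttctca
CG7646, chr3L:19991783-19991883, plus strand: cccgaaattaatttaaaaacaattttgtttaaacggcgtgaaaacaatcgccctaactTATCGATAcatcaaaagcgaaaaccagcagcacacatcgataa
orb2, chr3L:8953642-8953742, plus strand: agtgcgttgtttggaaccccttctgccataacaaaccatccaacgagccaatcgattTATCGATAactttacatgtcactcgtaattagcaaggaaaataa
All these summits lie near a start site. The octamer was present at 8 members, of which these 4 are shown.
bi, chrX:4406619-4406719, plus strand: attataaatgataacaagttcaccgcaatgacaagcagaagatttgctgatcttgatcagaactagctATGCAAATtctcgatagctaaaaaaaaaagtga
Or67c, chr3L:10242458-10242558, plus strand: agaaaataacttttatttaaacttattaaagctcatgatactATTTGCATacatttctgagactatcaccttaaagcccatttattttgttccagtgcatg
CG32720, chrX:7540834-7540934, plus strand: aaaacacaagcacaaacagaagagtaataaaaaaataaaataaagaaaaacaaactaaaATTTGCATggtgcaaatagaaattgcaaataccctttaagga
Spn, chr3L:2532591-2532691, plus strand: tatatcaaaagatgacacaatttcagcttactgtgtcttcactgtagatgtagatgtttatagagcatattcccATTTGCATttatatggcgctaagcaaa
These 4 summits lie between 2198 and 6187 bp from the nearest start site. The next pair of windows belongs to members with very good replicate ranks that hold neither word, and the capital there marks the pooled summit base.
soti, chr3R:14382923-14383023, plus strand: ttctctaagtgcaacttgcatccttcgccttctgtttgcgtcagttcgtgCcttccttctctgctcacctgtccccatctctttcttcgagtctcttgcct
Ids, chr3L:3395540-3395640, plus strand: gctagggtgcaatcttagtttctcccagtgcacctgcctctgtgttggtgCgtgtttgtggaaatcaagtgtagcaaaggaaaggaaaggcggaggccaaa

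The member near MICAL-like, a gene of the MICAL-like protein family, had a pooled signal value of 86.2 and ranked 11808, 6048 and 10173 in replicates 1, 2 and 3. Its summit lay 53 bp from the start site. The member near CG7646 lay 54 bp from a start site and ranked 10290, 11292 and 8801. The member near orb2, an RNA-binding translational regulator of long-term memory, ranked 3448, 4663 and 2986 in the replicates but 10346 in the pooled list, and touched an optimal peak. Near bi, a T-box gene that patterns wing and optic lobe, the octamer began 18 bp from the summit of a member that ranked 7378, 10865 and 11021. The octamer member near Or67c, an odorant receptor gene, ranked 8736, 8427 and 9564, and lay 2198 bp from the start site.

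The members fell into 2 kinds by position, which the rule did not ask for but which its coverage is not independent of. There were 425 members that shared no base with an optimal peak (apart) and 239 that shared at least 1 base with one (touching). The touching share of 36.0% (32.4 to 39.7) compares with 5.92% of all lower candidates, and with 7.10% (6.28 to 8.03) of the 3322 other lower candidates down to pooled rank 12000. The intervals of members and other candidates did not overlap, but the coverage rule bears on this share, so the gap is a description only. The share moved with the rule: it was 21.3% for members down to pooled rank 12000, 87.8% with the replicate rank limit at 8164, and 7.62% with coverage of at least 80%. A single replicate peak can lie over both a member and its optimal neighbour, and how often it did is given with the summit positions. There were 13 places where neighbouring members shared a base with each other.

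Apart members lay just under the cutoff. Their pooled rank had a median of 8902 and a range of 8170 to 28799, and 362 of the 425 ranked between 8165 and 10000. Touching members were spread over the list, with a median pooled rank of 12327 and a range of 8195 to 29880. Between pooled ranks 8165 and 9000, 228 apart and 34 touching members made up 31.4% of 834 lower candidates. Between 9001 and 10000 the members were 15.9% of 999, and between 10001 and 12000 they were 4.31% of 1996. Below pooled rank 20000 there were still 46 members, 8 apart and 38 touching, which were 0.46% of 9994.

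**Figure D1:**
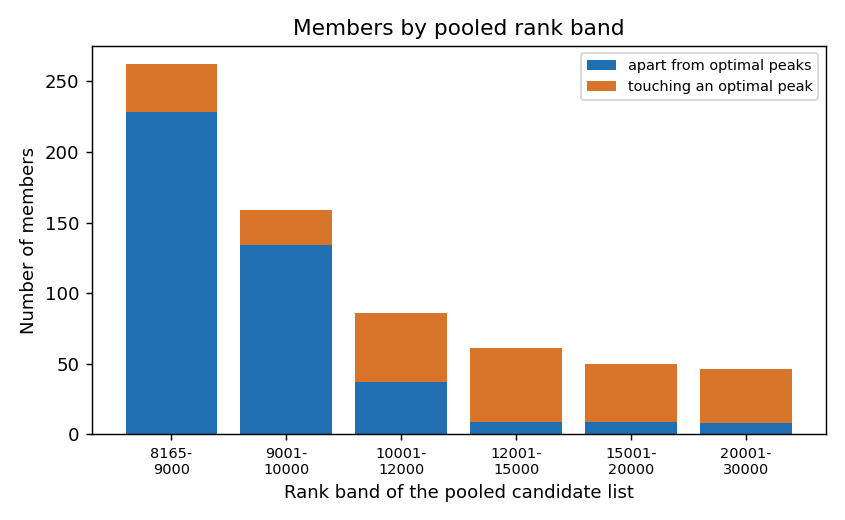
Number of members (vertical axis) in 6 bands of rank in the pooled candidate list (horizontal axis), stacked by kind, with bands of unequal width. Apart members fill the first 2 bands, with 228 and 134, while touching members number between 25 and 52 in each band.

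In the replicate lists the order of the kinds was the opposite. Apart members had median ranks of 9751, 9445 and 9987 in replicates 1, 2 and 3. Touching members had median ranks of 5511, 5967 and 5720. Only 15 apart members (3.53%) ranked within the first 8164 in each replicate, as did 108 touching members (45.2%). Among members, the worst of the 3 ranks was in replicate 1 for 207, in replicate 2 for 212 and in replicate 3 for 245. Lower candidates covered in just 2 replicates numbered 1153 for replicates 1 and 3, 691 for 1 and 2, and 683 for 2 and 3. Replicate 2 was thus most often the only one to fall short. The deposited −log10 of the q-value had a median of 2.14 in apart and 1.25 in touching members.

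**Figure D2:**
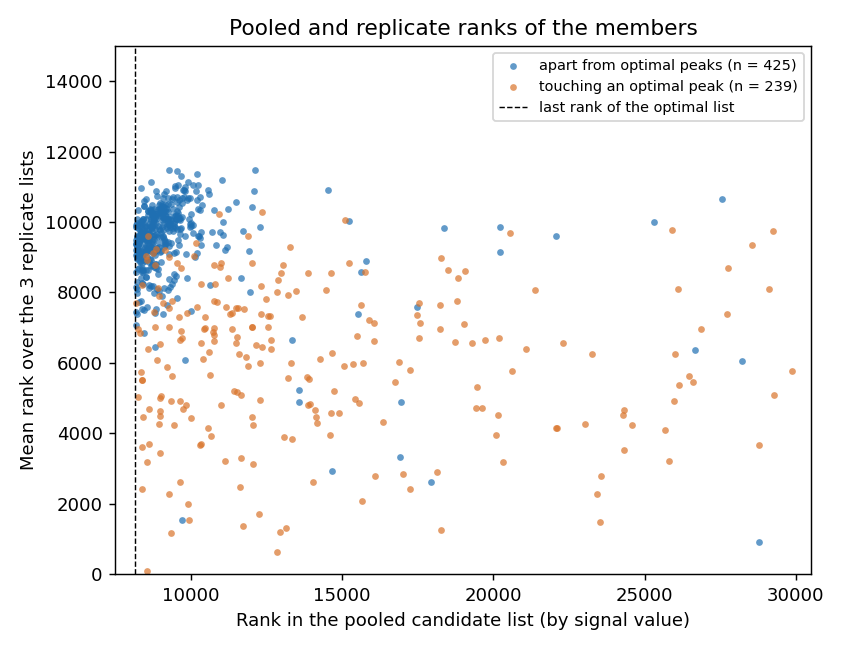
Rank of each member in the pooled candidate list (horizontal axis) against the mean of its ranks in the 3 replicate lists (vertical axis), where a low rank is a strong peak; the dashed line is the last rank of the optimal list. Apart members crowd at pooled ranks up to 10000 and mean replicate ranks of about 9667, their median, while touching members spread to pooled rank 29880 with a median mean rank of 6381.3.

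Replicate summits met at the pooled summit in most apart members and seldom in touching ones. All 3 replicates had a summit of their first 12000 peaks within 100 bp of the pooled summit at 288 members (43.4%). Over all lower candidates it was 1.32%, which says nothing about the members, since 288 of those 289 candidates are the members themselves and a close summit nearly always brings the coverage that the rule asks for. This was so for 276 of 425 apart members (64.9%, 60.3 to 69.3) and for 12 of 239 touching members (5.02%, 2.9 to 8.57). Among the optimal peaks that meet the same coverage it was so for 89.7%. Measured in each replicate by the peak with which coverage was reached, the median distance between the replicate's summit and the pooled summit was 30.0 ± 6.56 bp in apart members (SD, n = 3 replicates). It was 155 ± 20.1 bp in touching members and 18.3 ± 4.51 bp in covered optimal peaks. The 3 replicate summits lay a median of 89 bp from end to end in apart members, 119 bp in touching members and 47 bp in covered optimal peaks. For single members below, the distance is to each replicate's nearest summit among its first 12000 peaks. That summit need not belong to the peak that gives the rank.

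**Figure D3:**
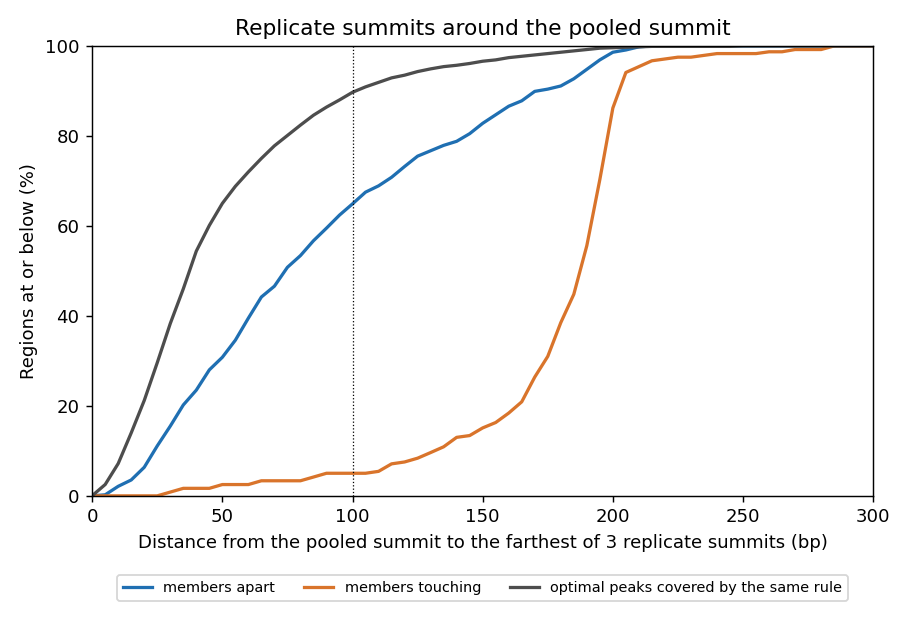
Share of regions (vertical axis, %) whose farthest replicate summit lies at or below a given distance from the pooled summit (horizontal axis, bp), for 425 apart members, 239 touching members and 6740 covered optimal peaks. The dotted line at 100 bp separates the curves, and the touching curve climbs steeply near 188 bp, its median.

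The touching members sat at a nearly fixed distance from a stronger summit. Their nearest optimal summit was 199 to 322 bp away with a median of 202 bp, and 208 of the 239 lay within 210 bp. The smallest distance between any pooled summits was 199 bp, so these members lie at the closest spacing that the list contains. Apart members had a median of 2955 bp to the nearest optimal summit. The 1053 other lower candidates that touch an optimal peak had a median of 203 bp, with quartiles of 200 and 211 bp. The spacing thus goes with touching an optimal peak and is not particular to members. In 232 touching members (97.1%) the covering peaks of all 3 replicates also shared a base with an optimal peak. The replicate summit was nearer to the optimal summit than to the member's own summit in 155 members for replicate 1, 143 for replicate 2 and 174 for replicate 3, and in all 3 replicates for 78 members (32.6%). At 65 touching members no replicate had a summit within 100 bp. The optimal neighbours were not confined to the weak end of their list, with a median rank of 4360 and 107 (44.8%) ranked above its midpoint.

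The clearest case is a member in an intron of wit, the type II receptor for BMP ligands at the neuromuscular junction. It ranked 8556 in the pooled list with a signal value of 85.8, and 90, 79 and 133 in replicates 1, 2 and 3. The replicate summits lay 199, 204 and 194 bp from the member's summit, and the optimal summit beside it lay 200 bp away and ranked 114. The member in an intron of CG12535 ranked 12849 pooled and 901, 395 and 579 in the replicates, whose summits were 185 to 203 bp off. The member nearest unc-119, in an intron of CG1677, ranked 9359 pooled and 1283, 960 and 1308. That in an intron of Ubr3, a ubiquitin ligase gene, ranked 18269 pooled and 998, 1640 and 1127. In all 4 cases no covering summit lay within 100 bp. At bip1 the member ranked 12932 pooled and 1903, 580 and 1123. There the nearest summit of replicate 2 was 35 bp away while those of replicates 1 and 3 were 132 and 196 bp away.

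At 12 touching members the nearest summits of all 3 replicates did fall within 100 bp, and 3 of these are named after their values were seen. One is at grp, the fly Chk1 kinase, whose member ranked 25823 pooled and 2575, 2777 and 4259 in the replicates, with summits 61, 39 and 31 bp away. At dnc, a cAMP phosphodiesterase gene, a member 117 bp from a start site ranked 25671 pooled and 309, 11562 and 394, with summits 19, 28 and 19 bp away. The replicate 2 rank stands far from both others there. In an intron of Snoo, a Ski and Sno family cofactor of Smad proteins, a member ranked 8815 pooled and 5057, 11193 and 10078, with summits 62, 5 and 42 bp away. The pooled summits of these 3 members lay 202 to 227 bp from an optimal summit. The neighbouring optimal peaks ranked 2824 at grp, 357 at dnc and 4762 in Snoo. Whether the near replicate summits belong to the peaks that give the ranks was not tested.

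Base composition followed the same division. The GC content of the 101 bp around the pooled summit had a median of 33.7% in apart members and 42.6% in touching members. The quartiles were 28.7 and 39.6% in apart members, and 35.6 and 48.5% in touching ones. Optimal summits had a median of 31.7%, and so had the optimal neighbours of the touching members. Windows 200 bp to either side of optimal summits each had a median of 44.6%. Of the 239 touching members, 178 (74.5%) had a higher GC content than their optimal neighbour. Around the replicates' own summits the touching members' median was 32.3 ± 0.572% (SD, n = 3 replicates), close to the 32.0 ± 0.572% of covered optimal peaks. The 1053 other lower candidates that touch an optimal peak also had a median of 42.6%, so the value goes with that position and is not particular to members.

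**Figure D4:**
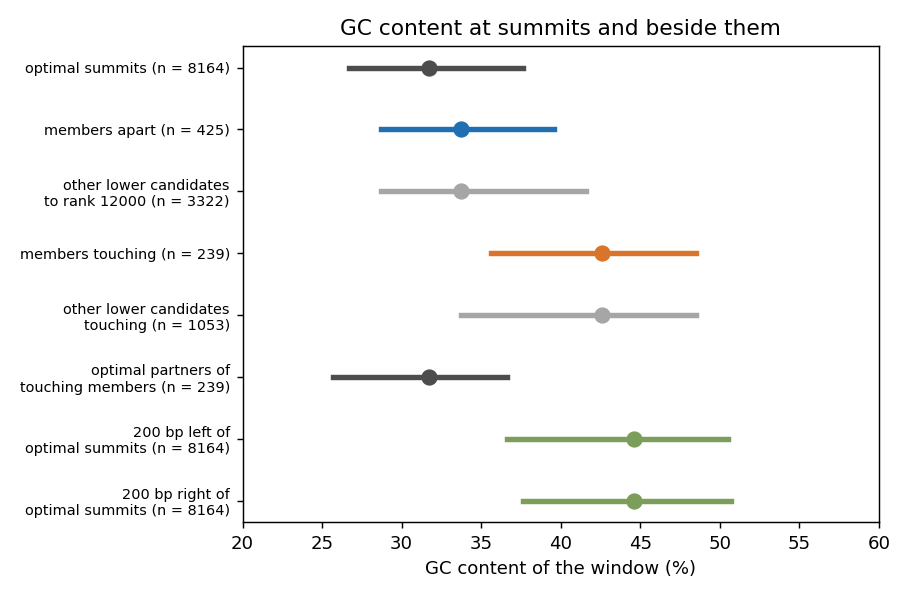
Median (point) and quartiles (line) of GC content in 101 bp windows (horizontal axis, %) at the summits of each set and at 200 bp to either side of optimal summits. Apart members (33.7%) lie near optimal summits (31.7%), and touching members (42.6%) near the flanking windows (44.6%).

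A few apart members had far better ranks in every replicate than in the pooled list. The first by mean replicate rank lies 20 bp from the start site of Ercc1, a DNA repair nuclease subunit, at pooled rank 28799. SMC2 also has a start site 308 bp from its pooled summit, and 110 bp from the summit shared by the replicates, which lies nearest SMC2. In replicates 1, 2 and 3 this member ranked 899, 1027 and 862, and the replicate summits lay 192, 209 and 198 bp from the pooled one. The nearest optimal summit was 2413 bp away, so no optimal peak stands under these replicate summits. The member near soti, whose window is printed above, ranked 9700 pooled and 1449, 1649 and 1545 in the replicates, with summits 3, 41 and 15 bp away. It adjoins an optimal peak without sharing a base, with the summits 202 bp apart.

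The member nearest Ids, 17322 bp from a start site, ranked 14667 pooled and 3256, 2317 and 3207, and the 3 replicate summits lay within 8 bp of the pooled summit. At loco, a regulator of G protein signalling with a role in glia, an intronic member ranked 13588 pooled and 6462, 2673 and 6541, with summits 32, 24 and 12 bp away. The member at Mekk1, a stress-activated kinase gene, shows the other pattern. It ranked 16948 pooled and 5782, 4374 and 4488, with summits 156 to 171 bp away. The member at Nedd4, a ubiquitin ligase gene, ranked 28212 pooled and 3471, 11524 and 3142, with summits 187, 38 and 166 bp away. Replicate 2 thus had the weakest rank and the nearest summit, and the nearest optimal summit was 19487 bp away. The remaining members of the best 10 are nearest CG6044, Mnt, Ifrd1 and CG7627, with pooled ranks of 17928, 16901, 13563 and 9808.

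The strongest members by pooled signal value reached 89.8, the value at which the optimal list ends. The first is in an intron of bru1, an RNA-binding splicing regulator of flight muscle, and ranked 8170 pooled and 10729, 6722 and 10178. The second is in an intron of vn, a neuregulin-like Egfr ligand, and ranked 8173 pooled and 10407, 9569 and 8536. At both, all replicate summits lay within 35 bp. The others are in introns of Elp6 and Pdcd4 and near CG18507, at pooled ranks of 8174, 8183 and 8178. At the far end, the member in an intron of rols, an adaptor for myoblast fusion, ranked 29880 pooled and 4105, 7306 and 5942. It touches an optimal peak, as do 3 of the other 4 with the lowest pooled ranks, while the member at Ercc1 is the exception.

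The limit of rank 12000 runs through a dense stretch of the lists. The last members inside it had worst replicate ranks of 11990 to 11996, and include an intronic one in shep, an RNA-binding protein gene, and one 3510 bp from Cyp18a1, which encodes an ecdysteroid-inactivating enzyme. The first regions outside it had worst ranks of 12002 to 12011. One of these is in an intron of hth, a TALE homeodomain gene, and ranked 9372, 10400 and 12005. These 10 regions had pooled ranks from 8212 to 10394 and all lay apart from optimal peaks.

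By position relative to genes, the members resembled other candidates down to pooled rank 12000, though part of the members rank lower than that. Of the 664 summits, 153 (23.0%, 20 to 26.4) lay within 500 bp of a start site, against 14.1% of all lower candidates. The share was 21.4% (17.8 to 25.6) in apart and 25.9% (20.8 to 31.8) in touching members. For the 507 members down to pooled rank 12000 it was 21.9%. It was 20.5% (19.2 to 21.9) in other lower candidates down to pooled rank 12000 and 28.0% (27.1 to 29) in optimal peaks, so the apart members' interval held the former and lay under the latter. Taken at the replicates' own summits, the members' share was 23.5 ± 0.398% (SD, n = 3 replicates). Introns held 326 members (49.1%, 45.3 to 52.9), against 49.1% of all lower candidates. Intergenic summits numbered 176 (26.5%, 23.3 to 30), against 33.5% (32.9 to 34.2) of other lower candidates and 29.5% (28 to 31.1) of those down to pooled rank 12000. Exons held few in every set, and exonic summits within 500 bp of a start site were classed with start sites. Members had 3 summits in 5' UTRs (0.452%), 2 in coding exons (0.301%) and 4 in 3' UTRs (0.602%). All lower candidates had 0.756, 1.09 and 1.61% there, and optimal peaks 0.563, 0.196 and 0.784%.

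**Figure D5:**
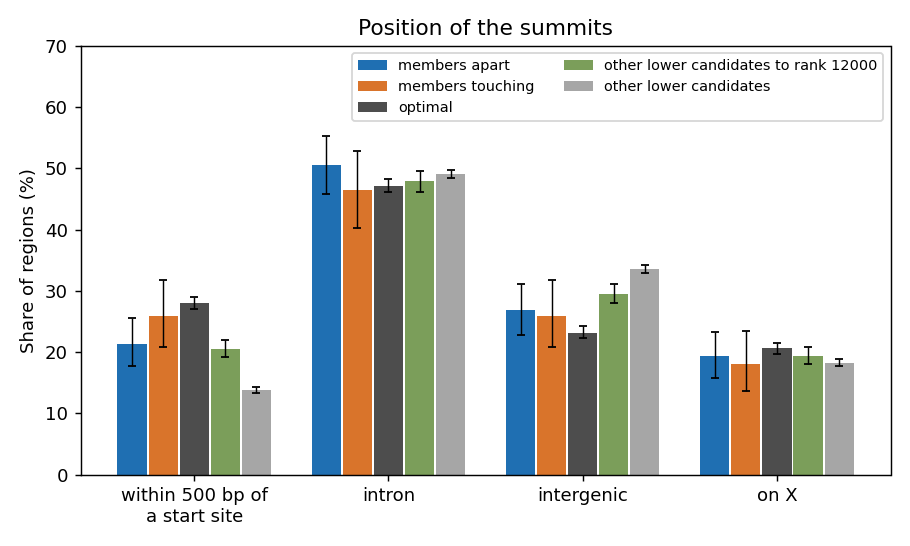
Share of regions (vertical axis, %) with the summit near a start site, in an intron, between genes or on X, for 425 apart members, 239 touching members, 8164 optimal peaks, 3322 other lower candidates to pooled rank 12000 and all 21150 other lower candidates; bars are shares and error bars 95% Wilson intervals. Near start sites both kinds of member stand above the 13.8% of other lower candidates, and intron shares lie between 46.4 and 50.6%.

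Chromosome arms were represented as among the other candidates. X held 125 members (18.8%, 16 to 22), against 18.3% of all lower candidates, and 3L held 158 (23.8%), against 23%. On 3R there were 144 (21.7%, against 23.5%), on 2L 127 (19.1%, against 19.2%) and on 2R 105 (15.8%, against 15.4%). Chromosome 4 held 5 members, all apart. These are named after their values were seen: one near Sox102F, a Sox gene, one near ci, the transcription factor of Hedgehog signalling, and one each at the start sites of MED26, anne and ey. Their share of 0.753% (0.322 to 1.75) has an interval that holds the 0.719% of other lower candidates and also reaches the 0.38% of optimal peaks.

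The 17 words were sought on both strands in the 101 bp around each pooled summit. Besides the octamer ATGCAAAT and the shorter ATGCAA, which lies inside it, they were the homeodomain word TAATTA, the homeodomain and POU-specific word ATTAGCAT, the DREF word TATCGATA and the GAGA factor repeat GAGAGAG. Further words were GGTCACAC of M1BP, CAGGTAG of Zelda, CACGTG as an E-box, CAGCTG as a proneural E-box, TGACTCA of AP-1, AACCGGTT of Grainy head and GATAAG of GATA factors. The last were AAGGTCA of nuclear receptors, GTGGGAA of Su(H), the TATA box TATAAAA and the repeat CACACACA. The POU octamer stood at 8 members (1.20%, 0.612 to 2.36), against 1.87% of all lower candidates and 1.59% of optimal peaks. All 8 were among the 511 members away from start sites (1.57%, 0.795 to 3.06), where other lower candidates had 2.07% and optimal peaks 1.72%. Near start sites it stood at 0 of 153 members (Wilson upper bound 2.45%), against 0.787% of other lower candidates and 1.27% of optimal peaks there. In windows of 100 bp to either side the octamer stood at 2.56% of members (1.6 to 4.06), 2.93% of optimal peaks and 3.9% (3.64 to 4.17) of other lower candidates. The members' intervals hold or overlap these values in each case. The shorter ATGCAA stood at 69 members (10.4%, 8.29 to 12.9), against 819 of 8164 optimal peaks (9.4 to 10.7%) and 10.9% of other lower candidates. At the replicates' own summits the octamer share was 1.46 ± 0.23% (SD, n = 3 replicates).

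TATCGATA stood at 5 members (0.753%, 0.322 to 1.75), against 0.403% of all lower candidates. The 5 were all among the 153 members near start sites (3.27%, 1.4 to 7.42), where optimal peaks had 2.14% and other lower candidates 1.47% (1.09 to 1.98). Away from start sites it stood at 0 of 511 members (Wilson upper bound 0.746%), which holds the 0.255% of optimal peaks and 0.219% of other lower candidates there. GGTCACAC likewise stood at 5 members near start sites (3.27%, 1.4 to 7.42), where other lower candidates had 1.47% (1.09 to 1.98) and optimal peaks 1.01% (0.671 to 1.5). Away from start sites it stood at 0 of 511 members (Wilson upper bound 0.746%). Other lower candidates had 0.148% there and optimal peaks 0.34%, so the word was more frequent near start sites in every set. TAATTA, a core word of homeodomain sites, stood at 10.4% (7.8 to 13.6) of apart members and 3.77% (1.99 to 7) of touching members, against 10.1% of optimal peaks. TATAAAA stood at 8.0% of apart members and 3.35% (1.71 to 6.46) of touching members, against 9.64% (9.02 to 10.3) of optimal peaks. All lower candidates had TAATTA at 9.38% and TATAAAA at 7.83%. Other lower candidates that touch an optimal peak had TAATTA at 6.27% (4.96 to 7.9) and TATAAAA at 6.55% (5.21 to 8.21). These intervals overlap those of touching members, so a low share is not shown to be particular to members. The touching windows also had the higher GC content given above, and its part in these shares was not tested.

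GAGAGAG, the repeat bound by GAGA factor, had a higher share in members than in optimal peaks. It stood at 19 members (2.86%, 1.84 to 4.43), against 1.26% (1.04 to 1.53) of optimal peaks and 1.63% (1.47 to 1.81) of other lower candidates. Down to pooled rank 12000 the other lower candidates had 1.54% (1.17 to 2.01), an interval that overlaps that of the members. Apart members had 2.35% (1.28 to 4.28), which overlaps the interval of optimal peaks, and touching members 3.77% (1.99 to 7). Other lower candidates that touch an optimal peak had 2.66% (1.85 to 3.82), so a high share is not particular to members. Near start sites GAGAGAG stood at 11 of 153 members (7.19%, 4.06 to 12.4), against 3.22% (2.64 to 3.92) of other lower candidates and 1.84% (1.36 to 2.47) of optimal peaks there. Away from start sites it stood at 8 of 511 (1.57%), where other lower candidates had 1.38%. CAGCTG stood at 32 members (4.82%, 3.43 to 6.72), against 2.68% of optimal peaks and 3.5% (3.26 to 3.76) of other lower candidates. The CAGCTG share was 4% in apart and 6.28% (3.84 to 10.1) in touching members, and 5.6% (4.37 to 7.16) in other lower candidates that touch an optimal peak, so a high share is not particular to members. AACCGGTT, the Grainy head site, stood at 4 members (0.602%, 0.235 to 1.54), against 0.151% (0.107 to 0.214) of other lower candidates, a count too small to compare firmly. These 3 were picked out of the 17 after their values were seen.

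The members added few genes to those near optimal peaks. Of 13945 protein-coding genes, 255 had a member summit within 1 kb of a start site and 2965 had an optimal summit there. A member without an optimal summit was found at 97 genes, or 0.696% of all, and 95 of these came from apart members. With coverage asked of just 1 pair of replicates the count was 204 to 281, by pair, and with coverage of at least 80% it was 37. For 36 of the 97 another gene lies within 1 kb of the same summit. Of 600 genes in 28 lists of pathways, tissues and gene classes, 8 were among the 97 (1.33%). These 8 belong to 6 lists, and the other 22 lists held none of the 97, among them the ecdysone response, BMP, Wnt, POU and olfactory neuron lists. The BMP list did have 3 genes and the ecdysone list 1 gene with a member within 1 kb, beside an optimal summit. These named lists hold 5 to 24 genes, too few for a count of 0 to differ from the 0.696% of all genes.

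A pair of selector genes was reached by a member alone. At ey, the Pax6 eye selector on chromosome 4, a member 33 bp from a start site ranked 11142 pooled and 9913, 8932 and 8775. At Dr, a homeobox gene of dorsoventral neural patterning, a member 319 bp from a start site ranked 9986 pooled and 11059, 7949 and 10567. They make 2 of the 38 Hox and selector genes, of which 12 had an optimal summit. In the Notch list mib1, a ubiquitin ligase that acts on Notch ligands, was 1 of 22, with a member at 8332 pooled and 11253, 5155 and 10820.

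Among 49 cytosolic ribosomal protein genes, of which 34 had an optimal summit, 2 were added. At RpL15 the member lay 25 bp from a start site and ranked 8228 pooled and 8483, 6656 and 9162. At RpLP2 it ranked 8473 pooled and 11951, 6069 and 9539. Pi3K92E, the catalytic subunit of class I phosphoinositide 3-kinase, was 1 of 22 insulin and TOR genes, with a member at 9231 pooled and 7303, 7607 and 9300 that also lies within 1 kb of Lrrk. Fas3, a septate junction adhesion protein, was 1 of 34 axon guidance and adhesion genes, with ranks of 10057 pooled and 11179, 9631 and 8979. The muscle list added how, an RNA-binding protein of the quaking family, with 8885 pooled and 7797, 10526 and 9286. All 8 members lay apart from optimal peaks.

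Within gene bodies, 358 of 13945 protein-coding genes held a member summit, of which 298 held 1, 46 held 2 and 14 held 3 or more. Where genes overlap, the same summit was counted for each of them. The number of genes holding an optimal peak or another lower candidate is not given here, so these counts are a description only. Eip63E, a cyclin-dependent kinase gene of 94.8 kb, and Snoo, of 93 kb, held 5 each. In Eip63E the 3 apart members ranked 10254, 8199 and 8477 pooled and the 2 touching ones 14091 and 11875. The 5 lie in introns, among 9 optimal peaks and 38 other lower candidates. In Snoo there were 18 optimal peaks and 36 other lower candidates beside the members. CG32816, CG32719 and mgl, the fly megalin, held 4 each, and are all on X. The shorter Argk1, the arginine kinase gene of 17.2 kb, held 3 members beside 2 optimal peaks and 1 other lower candidate, and Pdcd4, of 9.83 kb, held 3 beside 3 optimal peaks and 6 other lower candidates. The remaining genes with 3 each were RhoGEF64C, B4, Bsg, CG12535, CG30089, Pde11 and klar.

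The pdm3 gene, with 5 kb added to either side, held 0 members, 9 optimal peaks and 35 other lower candidates. One member lies just beyond that distance, between genes and 7432 bp from the pdm3 start site, which is the nearest. It ranked 8238 in the pooled list and 9088, 9127 and 11273 in the replicates, with summits 3, 6 and 54 bp away, and lay 1759 bp from the nearest optimal summit.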

How the data were processed

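The 3 samples are libraries of 1 group, and nothing further in the labels separates them. Per the labels, the deposited lists are candidate peaks of each replicate and of the pooled replicates, made with 1 control file, and the optimal list thresholded on the irreproducible discovery rate; which aligner, caller and threshold were used, and the read depth, is not given in the sources used here. Signal value, −log10 of the q-value and summit offset are the authors' own per the deposited narrowPeak lists. The normalization of the signal value is not stated, and it served for ranking inside each list alone.

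Lists on dm6 were used, those on dm3 were not. A member's replicate rank is the rank at which rows taken from the top cover 50% of it. That row's summit served for the median distances, the spread, the comparison with the optimal summit and values at the replicates' own summits. Counts and shares within 100 bp, the curves of the farthest summit and the distances of single members used another summit. It is each replicate's nearest summit among its first 12000 peaks. Start sites (19607, of 13945 protein-coding genes on 6 arms) were taken from the Ensembl 115 annotation, and sequence from RefSeq dm6; no row ran past an arm's end. Summit classes were assigned in the order start site (500 bp), 5' UTR, coding exon, 3' UTR, intron, intergenic. Of 617 list symbols, 17 were not in the annotation. Coverage ranks and word searches were tested on simulated data, where 300 of 300 ranks and 100 of 100 planted words were recovered. Python 3.11.15, numpy 2.4.6, pandas 2.3.3 and scipy 1.17.1 were used.

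The members, gene lists, words and comparisons were chosen with earlier results of these data known. Named members are the 10 best by mean replicate rank among apart and the 5 best among touching members, the 5 highest and 5 lowest by pooled signal value, the 5 to either side of rank 12000, the 10 genes holding most members (with all genes that tie at 3 members), and up to 4 genes per list with a member and no optimal summit within 1 kb; sequences were taken in pooled rank order by word and in order of mean replicate rank, passing over windows on arm 2R or overlapping an annotated UTR, which left 3 of 5, 6 of 8 and 328 of 425. Alternatives changed the rank limit, the coverage, the replicates required, the distances and the window.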

Additional observations from a re-analysis of the deposited data

How the results depend on the processing

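Of 126 values recomputed, 78 moved by less than the error given with them or, for counts, by less than 1.5 times, and 48 moved more; most alternatives redefine the members, so their number changes by construction. There were 664 members as reported, 123 with a rank limit equal to the length of the optimal list, 226 with a limit of 10000, 1682 with 15000, 223 with coverage of at least 80%, 425 without those touching an optimal peak, and 1347 to 1817 when any 1 replicate was not required. Under the first 4 of these the touching share of 36.0% became 87.8, 73.5, 21.3 and 7.62%. It was 26.6 to 30.1% without 1 replicate, 21.3% for pooled ranks up to 12000, and 46.2% counted within 500 bp of an optimal peak. The share near start sites (23.0%) was 27.9% with the limit of 10000, 19.3% with 15000, 17.0% with 80% coverage, and 32.2 or 14.3% counted within 1000 or 250 bp. The intron share (49.1%) was 42.5% with the limit of 10000, and the octamer share (1.20%) was 2.56% in windows of 100 bp to either side. Median GC content (36.6%) was 43.6, 42.6, 35.6 and 33.7% under the first 4 alternatives, 33.7% in apart members, 34.7% for pooled ranks up to 12000 and 34.7 to 37.6% without 1 replicate. The 97 genes near a member alone became 4, 24, 248 and 37 under the first 4, and 204 to 281 without 1 replicate. The median spread of replicate summits (95 bp) was 71, 110 and 55 bp with the optimal list's length, the limit of 10000 and 80% coverage. The shares on X and with TATCGATA stayed within their intervals under every alternative run. Chosen after seeing the data, keeping rows with an optimal row's coordinates gave 683 members, and requiring summits of all 3 replicates within 100 bp gave 288 members, of which 4.17% touched an optimal peak, 17.0% lay near a start site, the median GC content was 33.7%, 54 genes were near a member alone and the spread was 67.5 bp. No paired analysis was possible because the samples form 1 group. Read depth is unknown for every list, and what it limits could not be computed.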

Other observations

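The pooled list did not hold every summit on which the replicates met. Replicate 1 had 5029 peaks within its first 8164 whose summits had a replicate 2 and a replicate 3 summit of the same rank range within 100 bp, and 4931 of these had a pooled summit within 100 bp. The other 98 (1.95%) had none, 60 of them had no pooled summit within 1000 bp, and 3 of the 98 lay inside a member. Those 3 members are at Ercc1, Mekk1 and CG3638, and their replicate ranks are those of the shared summits. The shared summit inside the Ercc1 member lies nearest the start site of SMC2. One of the 60 lies 103 bp from the start site of CG13901 and ranked 788, 495 and 681 in replicates 1, 2 and 3, and another lies 36 bp from a start site of Liprin-beta, a synaptic scaffold gene, and ranked 601, 825 and 756. Pooled summits were 13516 and 7743 bp away from these. Both were chosen after their values were seen.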
